A study of Mus musculus with 10 samples.

Results

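The genes described here mark astrocytes, the star-shaped glia that line synapses and vessels, and carry out the uptake of the transmitter glutamate. They were fixed by name and not by a cutoff on measured values, though with earlier results of these data known: Aldh1l1, Slc1a2, Slc1a3, Gja1, Gjb6, Aldoc, S100b, Sox9, Glul and Fgfr3. All 10 were found among the 28871 genes of the table, and all 10 were among the 19093 that passed the filter on low counts. The samples were whole hippocampi of wild type male C57BL/6J mice, 2 months old at the start. Visudyne, a clinical preparation of the photosensitizer verteporfin, or vehicle was injected into the cisterna magna, and red light of 689 nm was then shone through the intact skull, a procedure that ablates meningeal lymphatic vessels when the drug is present. It was carried out again after 2 weeks, and tissue was taken 2 weeks later. Vehicle animals therefore shared the injection and, per the labels, the light. There were 5 Visudyne samples (3, 6, 9, 12 and 15) and 5 vehicle samples (1, 4, 7, 10 and 13), numbered as in the labels, which do not say that each is 1 animal. The p-values measure the spread between these samples.

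Astrocytes clear glutamate from the synaptic cleft with 2 sodium-driven transporters, GLT-1 (Slc1a2) and GLAST (Slc1a3). Glutamine synthetase (Glul) turns it into glutamine, which is handed back to neurons. Neighbouring astrocytes are joined into a network by gap junctions of connexin 43 (Gja1) and connexin 30 (Gjb6). Sox9 is a transcription factor that keeps astrocyte identity, and Fgfr3 is a fibroblast growth factor receptor of astrocytes and their progenitors. Aldh1l1, an enzyme of folate metabolism, Aldoc, the brain form of the glycolytic enzyme aldolase, and S100b, a calcium-binding protein, are widely used astrocyte markers.

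Hippocampi of Visudyne-treated mice did not differ detectably from those of vehicle-treated mice in any of these 10 mRNAs. None passed edgeR's quasi-likelihood test at an adjusted p under 0.05 (0 of 10, against 0.0210% of all genes tested). At an unadjusted p under 0.05 there were again 0 of 10, against 1.70% of all genes. DESeq2 and limma voom also called 0 of the 10. Each had an edgeR adjusted p of 0.9999. The log2 fold changes, Visudyne minus vehicle, ran from -0.06 for Fgfr3 to 0.09 for S100b; 7 were positive and 3 negative, with a median of 0.04, where 51.1% of all genes were positive and their median was 0.0022. In no member were the groups separate, against 0.435% of all genes tested. Values are counts scaled to a common library total (CPM) with edgeR's TMM factors, and errors are SD over 5 samples.

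**Figure D1:**
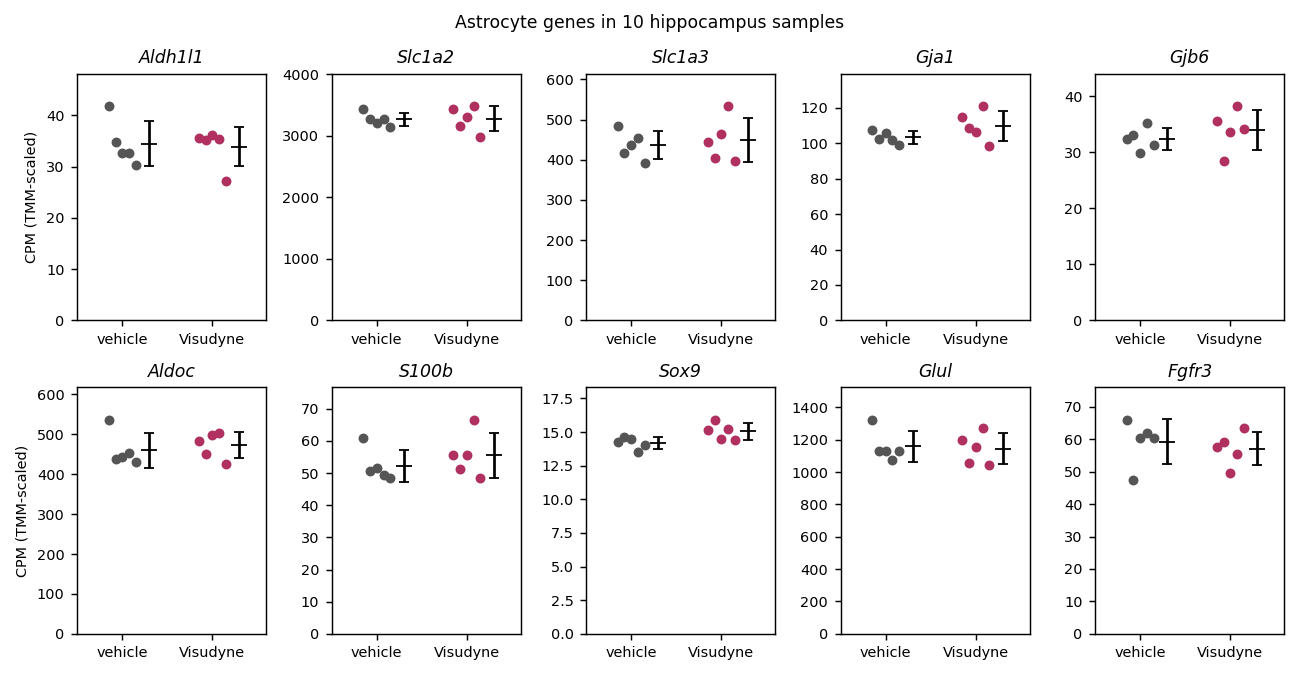
CPM of each of the 10 genes (y axis, from 0) in vehicle (grey) and Visudyne (red) samples, 1 point per sample, with the mean and SD over 5 samples beside them. The groups overlap in every gene, and Sox9 has 3 Visudyne samples above the highest vehicle sample.

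The main glutamate transporter, Slc1a2, was among the steadiest of the 10. It measured 3435, 3269, 3215, 3272 and 3140.1 CPM in vehicle 1, 4, 7, 10 and 13. In Visudyne 3, 6, 9, 12 and 15 it measured 3436, 3160.0, 3309, 3481 and 2988 CPM. The Visudyne samples spanned the whole vehicle range, with 2 above it and 1 below. Means were 3266 ± 109 CPM with vehicle and 3275 ± 203 CPM with Visudyne (n = 5 each), a log2 fold change of 0.0036 (SE 0.05). In percent, the 95% interval of the difference ran from -7.55% to 8.71%. The sign of so small a value changed with the sample left out.

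The second transporter, Slc1a3, varied more. Vehicle samples, in the same order, held 483, 416, 437, 453 and 393 CPM. Visudyne samples held 443, 404, 464, 533 and 398 CPM. Visudyne 12 was the highest of all and vehicle 13 the lowest, and 1 Visudyne sample exceeded the vehicle range. The log2 fold change was 0.04 (SE 0.08), with an interval of -9.25% to 16.3%, and it was -0.03 without Visudyne 12.

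Glul, which amidates the glutamate taken up, measured 1324, 1129.6, 1129, 1074 and 1132 CPM in the vehicle samples. It measured 1197, 1055, 1154, 1272 and 1045 CPM in the Visudyne samples. Vehicle 1 stood above all others, and Visudyne 6 and Visudyne 15 lay below the vehicle range. The log2 fold change of -0.02 (SE 0.07) came with an interval of -11.2% to 10.01%. Without vehicle 1 it was 0.04.

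Ratios within a sample do not depend on its total or its scaling. The ratio of Slc1a2 to Slc1a3, the balance of the 2 glial transporters, averaged 7.51 ± 0.392 with vehicle and 7.35 ± 0.530 with Visudyne (exact two-sided permutation test, p = 0.619, n = 5 each). Its lowest value, 6.53, was that of Visudyne 12, and its highest, 7.997, that of vehicle 13. Glul to Slc1a2 stood at 0.354 ± 0.0211 and 0.349 ± 0.0112 (exact permutation p = 0.730). Gja1 to Gjb6, the balance of the 2 connexins, stood at 3.20 ± 0.245 and 3.25 ± 0.340 (exact permutation p = 0.841). Adjusted over the 3 ratios each p was 0.841, and the smallest that this design allows is 0.0079. The differences of group means, -2.23%, -1.30% and 1.16%, were all smaller than the spread between samples.

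The gap junction genes had 2 of the larger positive differences, neither past the test. Gja1 measured 108, 102, 106, 102 and 98.8 CPM in the vehicle samples, a narrow range. In the Visudyne samples it measured 115, 108, 106, 121 and 98.2 CPM. Visudyne 3, 6 and 12 exceeded the highest vehicle sample, while Visudyne 15 was the lowest of all. The log2 fold change was 0.09 (SE 0.06), with an interval of -2.25% to 15.6%. Without vehicle 1 and Visudyne 15 together, an omission chosen after the data were seen, it was 0.14 (edgeR adjusted p = 0.964), and it was 0.06 without Visudyne 12.

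Gjb6 measured 32.3, 33.0, 29.9, 35.3 and 31.2 CPM in vehicle samples. Visudyne samples measured 35.6, 28.5, 33.6, 38.2 and 34.1 CPM. The lowest and the highest of the 10 samples, Visudyne 6 and Visudyne 12, were both treated ones. The log2 fold change was 0.07 (SE 0.07), with an interval of -5.89% to 17.5%. It was 0.03 without Visudyne 12, 0.13 without Visudyne 6, and 0.11 with library totals only.

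Among transcription and growth factor genes, Sox9 had the smallest spread within groups of the 10. It measured 14.3, 14.6, 14.5, 13.5 and 14.02 CPM in the vehicle samples. Visudyne samples measured 15.2, 15.9, 14.5, 15.2 and 14.4 CPM. All 5 Visudyne samples lay above the vehicle mean of 14.2 ± 0.432 CPM, and 3 lay above the highest vehicle sample. The Visudyne mean was 15.04 ± 0.618 CPM, a log2 fold change of 0.08 (SE 0.05), with an interval of -1.36% to 13.9%. This was the smallest unadjusted p of the 10, at rank 776 of 19093 genes. The within-group SD of its log2 CPM, 0.05, was lower than that of all but 3.26% of genes tested, although it rested on only 685 to 1142 counts per sample.

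Fgfr3 was the member with the most negative difference. It measured 66.1, 47.5, 60.4, 62.1 and 60.6 CPM in vehicle samples and stood lowest in vehicle 4. Visudyne samples measured 57.7, 59.2, 49.7, 55.5 and 63.4 CPM, all within the vehicle range. The log2 fold change was -0.06 (SE 0.09), with an interval of -15.6% to 9.64%, and it was -0.13 without vehicle 4 and -0.01 without either vehicle 1 or Visudyne 9.

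The 3 remaining markers, of metabolism and calcium binding, were highest in vehicle 1 or Visudyne 12. Aldh1l1 measured 41.8, 34.8, 32.7, 32.7 and 30.4 CPM in vehicle samples. In Visudyne samples it measured 35.6, 35.3, 36.1, 35.4 and 27.2 CPM. The first 4 of these lay close together and Visudyne 15 far below, and the log2 fold change of -0.02 (SE 0.10, interval -14.9% to 13.6%) was 0.04 without Visudyne 15 and 0.05 without vehicle 1. Without both samples, which held the highest vehicle and the lowest Visudyne value, it was 0.13 (SE 0.05, edgeR adjusted p = 0.964).

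Aldoc measured 537, 439, 443, 452 and 429.9 CPM in vehicle samples. Visudyne samples measured 483, 451, 499, 503 and 427 CPM. Vehicle 1 was far above the other vehicle samples, and the log2 fold change of 0.04 (SE 0.07, interval -7.55% to 14.01%) was 0.10 without it. S100b, which oligodendrocytes also express, measured 60.8, 50.8, 51.4, 49.3 and 48.6 CPM in vehicle samples. In Visudyne samples it measured 55.6, 51.4, 55.7, 66.7 and 48.4 CPM. Visudyne 12 was highest and Visudyne 15 lowest. The log2 fold change of 0.09 (SE 0.09, interval -6.66% to 21.3%) was 0.15 without vehicle 1 and 0.02 without Visudyne 12.

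**Figure D2:**
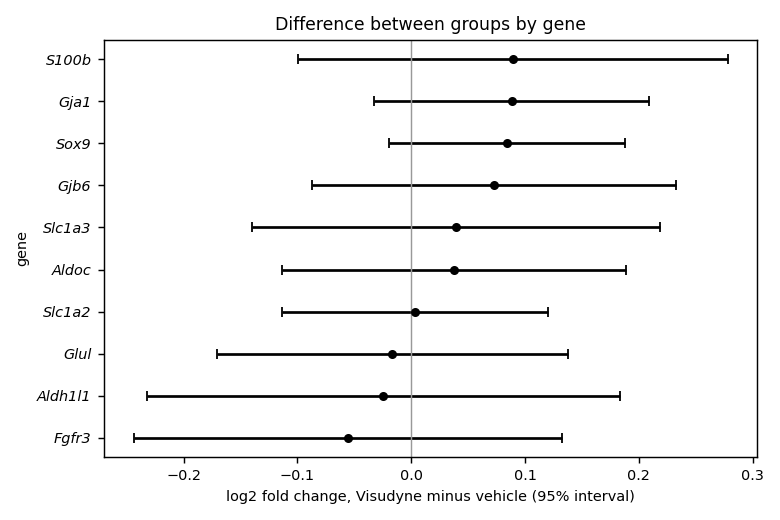
Log2 fold change, Visudyne minus vehicle, of each gene (points) with its 95% interval from the edgeR fit (bars). Every interval includes 0, from Fgfr3 at -0.06 to S100b at 0.09.

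Every 95% interval included 0. Its upper end was highest for S100b, at 21.3%, and its lower end lowest for Fgfr3, at -15.6%. Differences within a gene's interval were not detectable with these samples. In simulated data for this comparison with 19093 genes, the procedure called 2% of genes changed 1.2-fold, 66% of those changed 1.5-fold and 80% of those changed 2-fold. The changed genes were drawn at random from all genes tested, whatever their counts and spread, so these shares are not the members' own. For genes drawn this way, changes of the size these intervals still allow would mostly have been missed. In bulk tissue a lower number of astrocytes and less of an mRNA per astrocyte cannot be told apart.

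Levels of different genes are comparable only per length. Per kilobase of annotated exons, Glul stood highest at 346 ± 27.4 CPM per kb (SD over all 10 samples), followed by Slc1a2 at 249 ± 11.7, Aldoc at 143 ± 11.4, Slc1a3 at 51.8 ± 5.10 and S100b at 36.3 ± 4.0. The ranges of these 5 over the samples did not touch. Gjb6 at 12.4 ± 1.07 and Gja1 at 10.4 ± 0.693 overlapped in range, as did Fgfr3 at 8.13 ± 0.821 and Aldh1l1 at 7.57 ± 0.854, where Fgfr3 was above in 6 of 10 samples. Sox9 was lowest at 3.54 ± 0.163. With the length of the longest coding transcript in place of all exons, Gja1 (33.5 CPM per kb) came above Gjb6 (15.8) and the ranges of S100b and Gja1 overlapped, while the first 5 kept their order. By either length Slc1a2 exceeded Slc1a3 in all 10 samples.

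**Figure D3:**
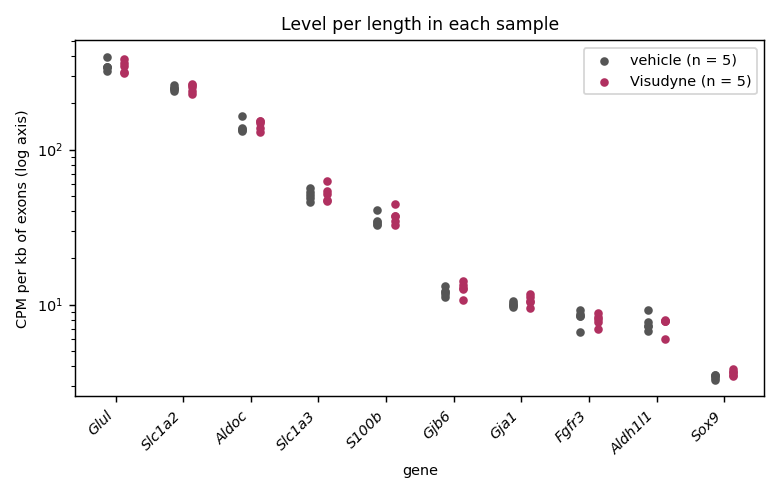
Level of each gene per kilobase of annotated exons (log axis) in every vehicle (grey) and Visudyne (red) sample, ordered by mean. The span runs from Glul at 346 to Sox9 at 3.54 CPM per kb, and the groups overlap throughout.

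Some samples stood high or low in several of the 10 genes. Vehicle 1 held the highest value of 4 members and Visudyne 12 of 5, while Visudyne 15 held the lowest value of 6. Expressed as the mean log2 difference from the vehicle mean over the 10 genes, Visudyne 12 stood at 0.16 and vehicle 1 at 0.14, and Visudyne 15 at -0.08 and vehicle 13 at -0.07. High and low samples thus occurred in both groups. The ratio of the highest to the lowest sample was between 1.17 for Slc1a2 and 1.54 for Aldh1l1.

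**Figure D4:**
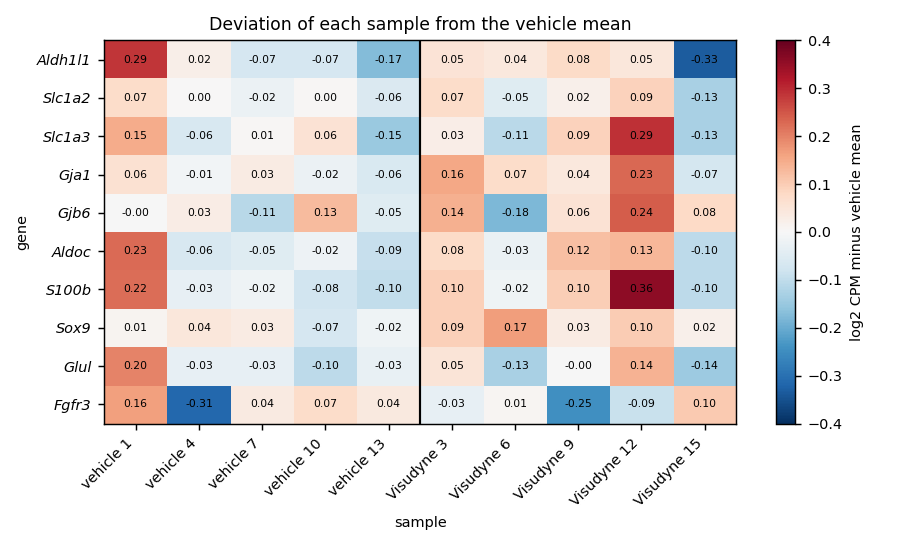
Log2 CPM of each gene in each sample minus its vehicle mean (colour and number); the black line separates vehicle from Visudyne samples. The columns of vehicle 1 and Visudyne 12 are mostly positive and that of Visudyne 15 mostly negative.

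With TMM scaling most members varied together over the 10 samples. Of the 45 pairs 37 had a positive Pearson r of log2 CPM, with a median of 0.58, and in 16 the permutation p of r was under 0.05 after adjustment over the 45. None of those 16 involved Sox9, Fgfr3 or Gjb6. With library totals only, 32 of the 45 pairs were positive. The same counts were not taken over pairs of all genes, so whether they are particular to the members was not tested. The pair of highest r was Slc1a3 and S100b, with r = 0.90 (permutation p = 0.00041, adjusted 0.012) and Spearman's rho = 0.86 (permutation p = 0.0026, adjusted 0.014), and r = 0.77 without Visudyne 12 and vehicle 13. By rho the closest pair was Slc1a3 and Aldoc (0.93), and by r of deviations from group means S100b and Glul (0.94). The 2 transporters, Slc1a2 and Slc1a3, had r = 0.84 (permutation p = 0.0025, adjusted 0.012) and rho = 0.90 (permutation p = 0.00078, adjusted 0.012), and r = 0.80 without Visudyne 12 and Visudyne 15. The 2 connexins, Gja1 and Gjb6, had r = 0.40 (permutation p = 0.25, adjusted 0.43) and rho = 0.21 (permutation p = 0.56, adjusted 0.68), and r = -0.51 without Visudyne 3 and Visudyne 12. Sox9 went best with Gja1, with r = 0.64 (permutation p = 0.044, adjusted 0.10) and rho = 0.73 (permutation p = 0.020, adjusted 0.048), and r = 0.56 without Visudyne 3 and Visudyne 12. Fgfr3 had a median r of -0.16 with the other 9 and at most 0.005 over the 10 samples. Except with Gjb6 and Sox9, its r was positive among vehicle samples, from 0.205 (Aldh1l1) to 0.535 (Aldoc). With the same genes it was negative among Visudyne samples, from -0.347 (Gja1) to -0.848 (Aldoc). These values rest on 5 samples each and were not tested.

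How closely they moved together depended in part on the scaling. With CPM computed from library totals alone, an alternative added after the data were seen, the median r over the 45 pairs was 0.36 in place of 0.58, and r was 0.85 for Slc1a3 with S100b and 0.64 for Slc1a2 with Slc1a3. TMM-scaled CPM are divided by the TMM factor, which ranged from 0.947 in vehicle 1 to 1.07 in Visudyne 15, the same samples that stood high and low in the members. The correlation of the factor with the mean standardized member level was r = -0.71 over 10 samples, given as a description because the factor enters both. The part of the factor in the shared course was not tested.

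**Figure D5:**
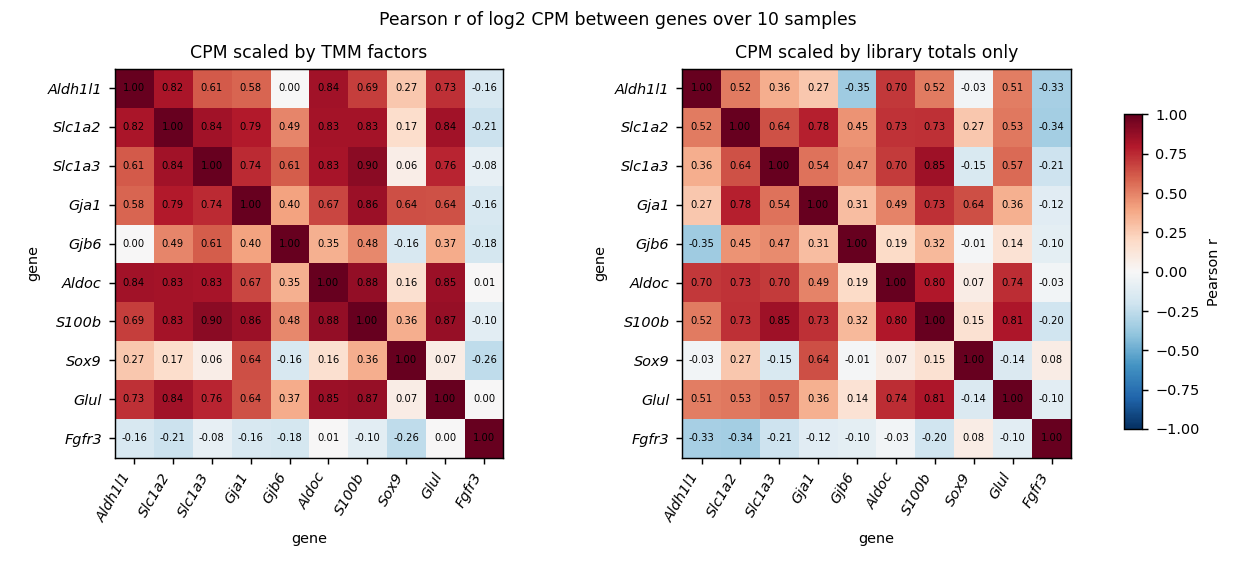
Pearson r of log2 CPM between each pair of genes over 10 samples, with TMM scaling (left) and with library totals only (right). The block of positive values among Slc1a2, Slc1a3, Aldoc, S100b, Glul, Gja1 and Aldh1l1 is paler on the right, where the median over all pairs is 0.36 against 0.58 on the left.

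Among 12907 other genes whose log2 CPM averaged 1 or more, the 5 whose log2 CPM correlated best with the members' mean standardized level over the 10 samples were Bmpr1b (r = 0.99), P4hb (0.98), Mlc1 (0.98), Tmem229a (0.97) and Rpl35 (0.96). Mlc1 is a membrane protein of astrocytic endfeet, Bmpr1b a receptor of bone morphogenetic proteins, P4hb a protein disulfide isomerase and Rpl35 a ribosomal protein. These values are the extremes of many genes and carry no test. Among 50 astrocyte genes outside the 10, r ran from -0.43 for Prodh to 0.98 for Mlc1. The mean log2 level of these 50 followed the members with r = 0.90, and that of microglia markers with 0.92. For neuron markers r was 0.76 and for oligodendrocyte markers 0.70. Lower values were those of precursors (0.60), fibroblasts (0.47), ependyma and choroid plexus (0.47), neural stem cells (0.37), endothelium (0.30) and pericytes and smooth muscle (0.12). All were over the same 10 samples and share their scaling.

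Start site windows of 250 bases before to 50 after the start, from RefSeq on GRCm38.p6, were found for 9 of the 10 members (11 windows, with 2 each for Aldoc and Fgfr3). The windows of Slc1a2 (from 102706188) and Aldh1l1 (from 90550543) lay inside the genes as annotated for the counts. Those genes begin at 102658659 and 90486427, and no window at these starts was searched. Slc1a3 and S100b are printed because they were the pair of highest Pearson r. The upstream window of Fgfr3 is printed because its r over the 10 samples was low with all other members. The choice was made after these values were seen. Capitals mark the half-site of nuclear factor I (TTGGC or its complement GCCAA) and the core of SOX factors (ACAAT or its complement ATTGT), both searched on either strand. Nuclear factor I proteins and Sox9 act in astrocyte development.
S100b at chr10:76253586-76253885, plus strand: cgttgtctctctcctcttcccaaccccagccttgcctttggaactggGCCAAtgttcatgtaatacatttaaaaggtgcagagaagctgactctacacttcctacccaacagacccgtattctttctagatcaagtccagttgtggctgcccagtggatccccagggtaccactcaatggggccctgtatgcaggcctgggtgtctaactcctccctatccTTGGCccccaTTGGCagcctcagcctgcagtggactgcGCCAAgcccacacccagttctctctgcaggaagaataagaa
Slc1a3 at chr15:8710758-8711057, minus strand: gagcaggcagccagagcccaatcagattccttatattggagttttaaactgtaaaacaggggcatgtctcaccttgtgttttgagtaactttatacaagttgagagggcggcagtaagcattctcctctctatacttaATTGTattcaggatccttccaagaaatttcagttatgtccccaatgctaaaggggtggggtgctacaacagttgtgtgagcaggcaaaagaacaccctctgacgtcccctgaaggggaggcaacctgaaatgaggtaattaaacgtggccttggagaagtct
Fgfr3 at chr5:33721474-33721773, plus strand: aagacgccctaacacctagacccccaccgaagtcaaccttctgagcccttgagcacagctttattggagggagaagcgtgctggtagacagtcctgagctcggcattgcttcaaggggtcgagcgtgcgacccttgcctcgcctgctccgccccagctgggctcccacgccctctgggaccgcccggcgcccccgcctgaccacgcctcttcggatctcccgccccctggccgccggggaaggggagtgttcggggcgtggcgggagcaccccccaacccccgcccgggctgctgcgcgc

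The S100b window held 4 nuclear factor I half-sites and no SOX core, that of Slc1a3 held 1 SOX core and no half-site, and that of Fgfr3 neither. Over the members, 4 of 11 windows held the half-site, against 46.7% of 32851 windows of the same length, and 2 of 11 held the SOX core, against 31.0%. The CCAAT box (CCAAT, which can overlap GCCAA) was in 5 of 11 and in 37.4% of all windows, and the E-box (CANNTG) in 9 of 11 and 72.3%. TATAAA was in 1 of 11, that of Slc1a3, and in 13.6%, and TGACGTCA in 0 of 11 and 1.79%. These are matches of letters only. Slc1a3 and S100b, the pair of highest Pearson r, shared neither marked motif in these windows. Pairs that were closest by other measures did share one. Slc1a3 and Aldoc, of highest rho, both had a SOX core. S100b and Glul, of highest r within groups, both had the half-site. The windows of Slc1a3 and S100b both held a CCAAT box and an E-box, as did the printed window of Fgfr3.

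Other genes of glutamate and glutamine handling gave no call either: 0 of 20 tested passed in either direction, 9 were positive, and the median log2 fold change was -0.0008. Slc17a7, the vesicular glutamate transporter of excitatory neurons, stood at 826 ± 57.9 CPM with vehicle and 795 ± 51.4 CPM with Visudyne (a log2 difference of -0.06, SE 0.06). The metabotropic receptor Grm5 measured 454 ± 37.1 and 448 ± 33.4 CPM. The smallest p was that of Slc38a2, a glutamine transporter, at 86.5 ± 4.401 and 98.1 ± 11.9 CPM, a log2 difference of 0.18 (SE 0.08) with an edgeR adjusted p of 0.9999.

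Of 11 other connexins and pannexins tested 0 passed, 5 were positive, and the median was -0.0054. Panx2 stood at 32.4 ± 3.55 CPM with vehicle and 34.4 ± 2.21 with Visudyne, the oligodendrocyte connexin Gjc3 27.9 ± 4.06 and 27.6 ± 3.53, and Panx1 15.5 ± 0.807 and 15.5 ± 0.168. Gja5, an arterial connexin, had the smallest p at 0.301 ± 0.0779 and 0.438 ± 0.0605 CPM, a log2 difference of 0.54 (SE 0.24) with an edgeR adjusted p of 0.9999.

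Transcription factors listed beside Sox9, not all of them factors of astrocytes (21 tested, 13 positive, median 0.02), had 0 called. Genes of the FGF family or of FGF signalling beside Fgfr3 (17 tested, 10 positive, median 0.0024) also had 0 called. Zbtb20 measured 436 ± 73.8 and 457 ± 77.1 CPM, Nfib 246 ± 24.2 and 242 ± 12.5, and Nfix 144 ± 3.93 and 143 ± 8.43, with Otx1 at the smallest p (log2 fold change 0.29, SE 0.19). The FGF receptor Fgfr1 measured 87.7 ± 2.19 and 87.9 ± 2.50 CPM, Spred1, an inhibitor of the pathway, 159 ± 5.03 and 161 ± 18.0, and Fgf12 113 ± 12.4 and 111 ± 15.7, with Fgf18 at the smallest p (-0.42, SE 0.21). Folate and glycolytic enzymes (29 tested, 10 positive, median -0.01) had 0 called as well. Aldoa, the aldolase found in all brain cells, measured 1197 ± 92.9 and 1165 ± 69.8 CPM, Gapdh 1051 ± 90.7 and 1023 ± 68.0, and Pkm 969 ± 78.1 and 945 ± 57.9. Aldh1l2, the mitochondrial relative of Aldh1l1, had the smallest p (0.21, SE 0.14).

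Astrocyte genes outside the 10 gave a similar picture. Of 50 tested 37 were positive and 0 called, with a median of 0.02. Sparcl1, a secreted synapse-promoting protein, measured 1131 ± 91.3 and 1119 ± 90.9 CPM, and Apoe 724 ± 93.9 and 754 ± 63.9. The potassium channel Kcnj10 had the smallest p, at 48.6 ± 2.53 and 52.2 ± 2.72 CPM, a log2 difference of 0.10 (SE 0.05) with an edgeR adjusted p of 0.9999. Of 34 reactive astrocyte genes tested 23 were positive and 0 called (median 0.08). Gfap measured 226 ± 25.7 and 243 ± 19.1 CPM, Fkbp5 44.2 ± 4.07 and 43.1 ± 4.05, Serpina3n 35.4 ± 2.98 and 34.2 ± 1.42, and Timp1, of smallest p, 0.289 ± 0.133 and 0.522 ± 0.122 (0.85, SE 0.32).

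Markers of other cells showed what else the tissue held, since Glul and S100b are also made by oligodendrocytes, Slc1a3, Sox9 and Fgfr3 by neural stem cells, and Gja1 by fibroblasts. Summed neuron markers (14 tested) ran from 7249 to 7837 CPM in vehicle and from 6895 to 7922 in Visudyne samples, with a median log2 fold change of -0.0022. Oligodendrocyte markers (12) ran from 1979 to 2979 and from 1968 to 2902 CPM (median -0.0079), precursors (5) from 110.6 to 123.6 and from 112.7 to 124.4 (-0.01), and microglia (12) from 287 to 354 in vehicle and from 295 to 354 in Visudyne samples (0.07). Endothelium (10, median 0.02), pericytes and smooth muscle (8, -0.04) and neural stem cells (8, 0.05) also had 0 called. Ependyma and choroid plexus markers (10, median 0.13, 0 called) reached 227 CPM in 1 vehicle sample and at most 72.7 CPM in Visudyne samples. Their median had no stable direction: it was -0.26 without Visudyne 12, -0.24 with limma voom and quality weights, and 0.27 without vehicle 7.

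Fibroblast markers had the largest median difference of the lists. All 16 were positive with a median of 0.43, and 9 of 16 had an unadjusted edgeR p under 0.05, where 1.70% of all genes did. The list was chosen with earlier results of these data known, so this share is a description and no independent test. After adjustment 1 was called: the collagen gene Col1a1 rose from a vehicle mean of 8.42 ± 2.30 CPM to 19.04 ± 2.47 CPM (edgeR adjusted p = 0.0485). Its log2 fold change of 1.18 stayed between 1.08 and 1.30 with any 1 sample left out, but the call was kept only without vehicle 1 or vehicle 4, and the edgeR adjusted p ran from 0.0275 to 0.279. The call was also lost with upper-quartile factors (edgeR adjusted p = 0.0596), with a minimum of 1 CPM in 5 samples (0.05001), without mitochondrial transcripts (0.0508) and without vehicle 1 and Visudyne 15 (0.0732), and kept with DESeq2 and limma voom. The fibroblast markers of highest mean CPM had log2 fold changes below the list median: 0.16 for Ptgds (SE 0.30), 0.18 for Dcn (SE 0.29) and 0.29 for Igf2 (SE 0.24). The smallest was 0.04 for Lum (SE 0.19). The sum of the 16 ran from 226 to 604 CPM in vehicle and from 399 to 711 CPM in Visudyne samples, and none of the 16 was at 0. Its largest part was Ptgds, at 279 ± 123 CPM with vehicle and 311 ± 116 CPM with Visudyne. Since fibroblasts of the meninges also express connexin genes, these values stand beside the positive differences of Gja1 and Gjb6, and their part in those differences was not tested.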

How the data were processed

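Total RNA of hippocampus was made into stranded total RNA libraries, per the labels' protocols. For 10 samples the authors deposited a table of Salmon's estimated counts by Ensembl gene on mouse build mm10, per the submitters' processing notes, which also name FastQC. For neither tool is a version given in the sources used here, nor an annotation release. The counts were whole numbers, 51165271 to 68895223 per sample, and the rows without a symbol held 0.134% of them. Symbols, positions and lengths came from GENCODE M21 for the same assembly. In each of 45 pairs of libraries the counts differed beyond sampling noise (smallest chi-square per degree of freedom 9.39).

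edgeR 4.0.16 (R 4.3.3) quasi-likelihood tests were run over 19093 genes after the default filter, with TMM, no covariate and Benjamini-Hochberg adjustment at 0.05. Log2 CPM used a prior count of 2. Ratios were tested by exact permutation and correlations by 100000 permutations. Alternatives were other normalizations and filters, removal of mitochondrial transcripts, DESeq2 1.42.0, limma 3.58.1 voom, the sample number as covariate and leaving samples out. The procedure was tested on simulated data. Whether Salmon used strand is not given: exons of Slc1a2 share 189 bases with the antisense Gm13872 (71 to 239 counts), and those of Fgfr3 share 998 with an antisense locus not analysed here.

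The 10 members and all lists (glutamate cycle, connexins, FGF family and signalling, developmental factors, folate and glycolysis, other and reactive astrocyte genes, and 9 other cell types) were chosen with earlier results of these data known. Named genes were all members, the smallest p of each list, the highest CPM of the pathway and cell type lists, and the 5 genes most like the members; of the cell type lists without a call only summed levels or medians are printed, and some genes that this rule names are not reported here.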

Additional observations from a re-analysis of the deposited data

Results flagged for a closer look

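In 26 groups of 5 values checked for a single sample far from the others, 4 were marked, where chance marks about 1 in 20. The checks share samples and genes that vary together, so they are not independent and this count is no test. Vehicle 1 stood far above the other vehicle samples in Aldoc (537 CPM, next 452), S100b (60.8 CPM, next 51.4) and Glul (1324 CPM, next 1132). Visudyne 15 stood far below the other Visudyne samples in Aldh1l1 (27.2 CPM, next 35.3).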

How the results depend on the processing

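No paired analysis was run, because the labels name no pairs and the 2 groups share no sample number. Sets of samples by number order were not tested. Over 21 alternatives, 191 of the 210 values of the members kept their direction, 19 changed sign, and 0 passed the threshold (edgeR, DESeq2 or limma adjusted p of 0.946 or higher). Aldh1l1 was 0.062 with voom and quality weights, 0.038 with the sample number as covariate, 0.021 with library totals only and 0.127 without vehicle 1 and Visudyne 15. Under the same settings Glul was 0.017, 0.007, 0.027 and 0.069. Leaving out 1 sample at a time gave -0.059 to 0.055 for Aldh1l1, -0.052 to 0.036 for Glul, -0.015 to 0.031 for Slc1a2 and -0.025 to 0.078 for Slc1a3. The log2 difference of the ratio of Slc1a2 to Slc1a3 was 0.030 with group medians, and ran from -0.056 to 0.0093 with 1 sample left out. That of Gja1 to Gjb6 ran from -0.042 to 0.059. That of Glul to Slc1a2 ran from -0.046 to 0.012, and it was 0.012 without vehicle 1 and Visudyne 15. The count of all genes past the threshold, 4 with edgeR, was 2 with upper-quartile factors, 2 without mitochondrial transcripts, 18 with DESeq2, 13 with voom and quality weights, 19 with the sample number, 2 without vehicle 1 and Visudyne 15, and 0 to 5 with 1 sample left out; the cause was not tested. Without those 2 samples most list medians were higher: 0.05 for folate and glycolysis, 0.13 for oligodendrocytes, 0.10 for connexins, 0.19 for reactive and 0.10 for other astrocyte genes. The 2 were chosen after the data were seen. Vehicle 1 stood high in the members and Visudyne 15 low. Leaving both out thus tends to raise the difference of any gene that follows the members, and the rise is no separate result. Depth limits Sox9 most, with 685 counts in its lowest sample.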
